A study of Homo sapiens with 12 samples.

Results

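Transcription factors that define luminal breast epithelium were followed in SKBR-3 cells by RNAseq. The 9 genes GATA3, ESR1, TFAP2A, TFAP2B, TFAP2C, SPDEF, ELF3, EHF and GRHL2 were taken by symbol from the 20531 genes listed, and all 9 passed the filter on low counts in every comparison. SKBR-3 is an established breast cancer line with HER2 amplification and without estrogen receptor protein. Cells of all 4 groups were transfected with a siRNA pool, either non-targeting (NT) or against FOXA1, and then received DMSO or 300 nM lapatinib, an inhibitor of the HER2 and EGFR kinases, for 24 h. The groups were NT siRNA with DMSO, NT siRNA with lapatinib, FOXA1 siRNA with DMSO and FOXA1 siRNA with lapatinib, with 3 samples each. The labels give 48 h for the siRNA step and the methods give 24 h of siRNA before the drug, so the 48 h may include the time with drug. The labels do not state that the replicates were separate cultures, so p-values measure the spread between these samples, which may be technical. All samples come from 1 cell line, and siRNA reduces a transcript without removing it.

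Luminal cells line the ducts and lobules of the breast, and their identity is held by a small network of factors. FOXA1 is a pioneer factor that opens chromatin, GATA3 is a zinc finger factor, and the estrogen receptor encoded by ESR1 acts with both of them in estrogen receptor-positive tumors. TFAP2A, TFAP2B and TFAP2C encode the AP-2 factors alpha, beta and gamma, of which AP-2 gamma is known as an activator of the HER2 gene. SPDEF, ELF3 and EHF belong to the epithelial ETS factors, and GRHL2, a grainyhead-like factor, maintains cell junction genes and opposes the mesenchymal state.

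FOXA1 was measured first as the target of the siRNA. Its normalized count, the count scaled to the effective library size at the average depth of the 12 libraries, was 8446, 8308 and 8767 with NT siRNA and DMSO and 1160, 1362 and 1564 with FOXA1 siRNA and DMSO. With lapatinib it was 12672, 12168 and 13177 with NT siRNA and 1642, 1889 and 2384 with FOXA1 siRNA. The groups with FOXA1 siRNA lay below both groups with NT siRNA, and FOXA1 fell by 2.63 (log2) in DMSO and fell by 2.69 in lapatinib. FOXA1 itself rose with lapatinib under either siRNA, by a log2 fold change of 0.60 (SE 0.05, adjusted p = 2.13e-05) with NT siRNA and 0.54 (SE 0.15, adjusted p = 0.0129) with FOXA1 siRNA (edgeR's quasi-likelihood test, Benjamini-Hochberg adjustment). The libraries held between 25749578 and 32271850 expected counts. The 8 luminal and HER2 markers, among them the keratins KRT7, KRT8, KRT18 and KRT19, summed to between 15137 and 22901 TPM in a library. The 5 basal markers summed to between 1.43 and 6.42 TPM. Of the fibroblast collagens, COL1A2 stayed under 3 counts in every library, while COL1A1 had a group mean of 311 to 497 normalized counts and fell with lapatinib by 0.65 under NT siRNA (log2, adjusted p = 0.00278) and by 0.33 under FOXA1 siRNA (adjusted p = 0.0490). Its part in the changes of the 9 factors was not tested. The 7 stromal, immune and endothelial markers together, mostly CD68, summed to between 20.2 and 46.8 TPM.

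The levels of the 9 factors spanned more than 3 orders of magnitude. Per transcript length and library (TPM), SPDEF led in cells with NT siRNA and DMSO at 372 ± 31.9 (SD, n = 3), followed by TFAP2C at 246 ± 10.4 and ELF3 at 239 ± 4.45, and the samples of the latter 2 overlapped. TFAP2A at 74.5 ± 2.78 and GATA3 at 57.6 ± 1.10 formed a middle level. EHF at 24.0 ± 3.62 and GRHL2 at 24.0 ± 2.43 TPM could not be ordered. TFAP2B reached 1.82 ± 0.36 TPM and ESR1 0.23 ± 0.09 TPM, the latter from 13 to 16 counts a library. The order changed with treatment. With FOXA1 siRNA and DMSO the samples of SPDEF at 247 ± 18.8 TPM and ELF3 at 222 ± 11.8 TPM overlapped. ELF3 reached 595 ± 32.6 TPM with NT siRNA and lapatinib, a level that overlapped with that of SPDEF at 599 ± 18.9, and with FOXA1 siRNA and lapatinib ELF3 at 580 ± 7.50 TPM stood above SPDEF at 429 ± 39.1 in all samples. GATA3 overlapped with TFAP2A only with NT siRNA and lapatinib among the 4 groups, at 102 ± 11.6 against 85.9 ± 7.25 TPM. With FOXA1 siRNA the order of EHF and GRHL2 was again not resolved, either in DMSO at 16.8 ± 0.45 and 20.7 ± 3.25 TPM or in lapatinib at 29.6 ± 3.29 and 24.6 ± 2.84 TPM.

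**Figure D1:**
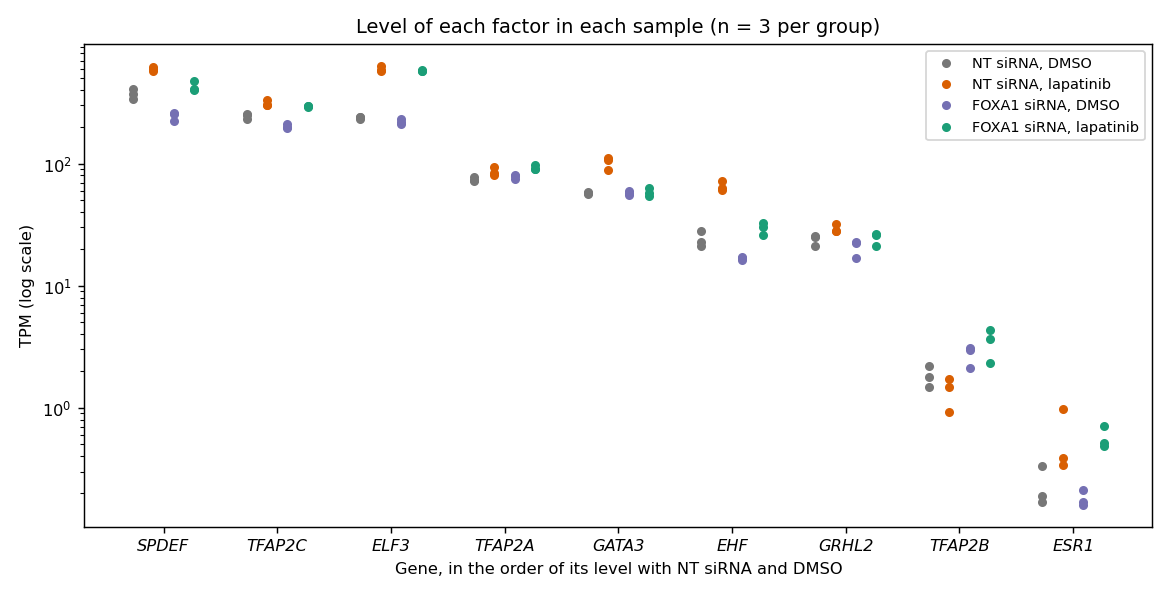
Level of each factor in TPM on a log scale, with the 3 samples of each of the 4 groups as points and the genes in the order of their level with NT siRNA and DMSO. SPDEF, TFAP2C and ELF3 lie at the top and TFAP2B and ESR1 at the bottom. ELF3 overlaps with SPDEF with NT siRNA and lapatinib and with FOXA1 siRNA and DMSO.

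GATA3, which lies at chr10:8045333-8075198 (GRCh38.p14), responded to lapatinib with NT siRNA and showed no detectable response with FOXA1 siRNA. Its normalized count was 2828, 2794 and 2832 with NT siRNA and DMSO and 5245, 4339 and 5558 with NT siRNA and lapatinib. Under FOXA1 siRNA it was 2689, 2792 and 2908 in DMSO and 2844, 2690 and 3165 in lapatinib. The 3 samples with NT siRNA and lapatinib stood above the other 9, which overlapped with each other. GATA3 rose by a log2 fold change of 0.86 (SE 0.09) with NT siRNA (adjusted p = 6.99e-05). With FOXA1 siRNA the log2 fold change was 0.06, with a 95% interval from -0.09 to 0.21 (adjusted p = 0.462). The interaction of siRNA and drug, which compares these 2 responses, was -0.79 (SE 0.12, adjusted p = 0.00269) on the log2 scale. FOXA1 siRNA left GATA3 at a log2 fold change of 0.00 in DMSO (adjusted p = 0.977), and in lapatinib GATA3 fell by 0.81 (adjusted p = 0.000382). GATA3-AS1, the divergent antisense gene next to GATA3, had 3 to 17 counts per library.

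EHF, at chr11:34621093-34663288, had the largest log2 fold change of the 9 factors with lapatinib and NT siRNA. The samples held 1261, 1586 and 1310 normalized counts with NT siRNA and DMSO and 3520, 4196 and 3778 with lapatinib. With FOXA1 siRNA it was 936, 962 and 988 in DMSO and 1522, 1904 and 1771 in lapatinib. FOXA1 siRNA samples were lower within each drug condition, without overlap. EHF rose by a log2 fold change of 1.49 (adjusted p = 1.06e-05) with NT siRNA and of 0.86 (adjusted p = 6.24e-05) with FOXA1 siRNA, and the interaction was -0.62 (SE 0.14, adjusted p = 0.0215). It fell with FOXA1 siRNA by 0.51 in DMSO (adjusted p = 0.00339) and by 1.15 in lapatinib (adjusted p = 4.71e-05). The interaction of EHF missed the threshold without replicate 1 or 3 of NT siRNA with DMSO (-0.56 and -0.58), replicate 3 of FOXA1 siRNA with DMSO (-0.60) or replicate 1 of FOXA1 siRNA with lapatinib (-0.53), at adjusted p up to 0.0585, and reached adjusted p = 0.000253 when the replicate numbers were blocked.

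SPDEF, an ETS factor of luminal and secretory cells at chr6:34537802-34556329, moved with both treatments, and its response to lapatinib did not differ between the siRNAs past the threshold. Its normalized count was 10414, 11753 and 11004 with NT siRNA and DMSO, 17383, 17905 and 18845 with NT siRNA and lapatinib, 6658, 7475 and 7701 with FOXA1 siRNA and DMSO, and 12044, 12316 and 14328 with FOXA1 siRNA and lapatinib. The 4 groups did not overlap. With lapatinib SPDEF rose by 0.73 on the log2 scale (adjusted p = 2.39e-05) with NT siRNA and by 0.83 (adjusted p = 5.41e-05) with FOXA1 siRNA. It fell with FOXA1 siRNA by 0.59 in DMSO (adjusted p = 0.000432) and by 0.49 in lapatinib (adjusted p = 0.000801). The interaction was 0.12 with a 95% interval from -0.11 to 0.35 (adjusted p = 0.574). With FOXA1 siRNA and lapatinib SPDEF was above its level with NT siRNA and DMSO by a log2 fold change of 0.25 (adjusted p = 0.0198). That call was lost without replicate 1 or 3 of NT siRNA with DMSO (0.19 and 0.23) or replicate 3 of FOXA1 siRNA with lapatinib (0.17).

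ELF3, an epithelium-specific ETS factor at chr1:202010587-202017183, rose with lapatinib under both siRNAs. Its normalized count was 12514, 11983 and 11910 with NT siRNA and DMSO and 29257, 32132 and 30270 with NT siRNA and lapatinib. Under FOXA1 siRNA it was 11787, 10552 and 11071 in DMSO and 29468, 29996 and 29491 in lapatinib. The lapatinib samples stood above all DMSO samples, at similar heights for both siRNAs. The log2 fold change was 1.35 (adjusted p = 1.29e-06) with NT siRNA and 1.42 with FOXA1 siRNA, and the interaction was 0.08 with a 95% interval from -0.06 to 0.23 (adjusted p = 0.538). With FOXA1 siRNA in DMSO, ELF3 had a log2 fold change of -0.11 (adjusted p = 0.0880), which passed the threshold with the replicate block (adjusted p = 0.00829). ELF3-AS1, which overlaps this locus, was not among the listed genes, and the sources used here do not say if reads were counted by strand.

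**Figure D2:**
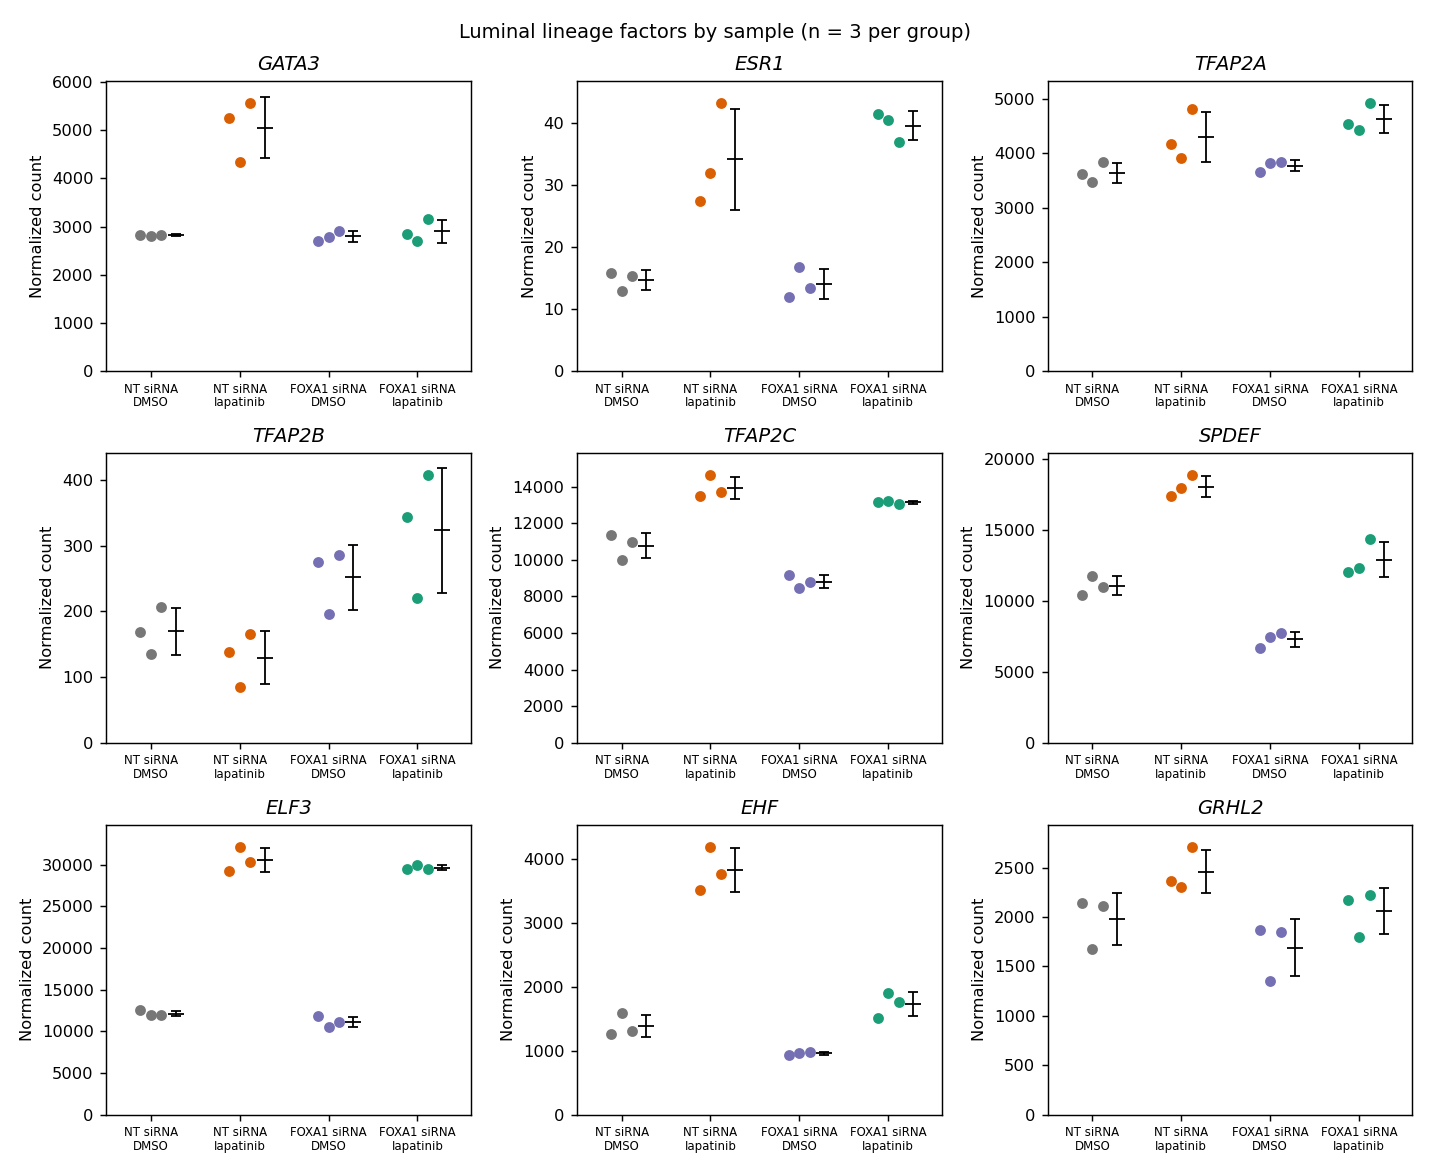
Normalized count of each factor in every sample, with a separate linear axis from 0 for each gene, and the mean ± SD (n = 3) beside the points. GATA3 is highest in the 3 NT siRNA samples with lapatinib, EHF is raised less with FOXA1 siRNA, ELF3 reaches the same height with both siRNAs, and TFAP2B is highest with FOXA1 siRNA and lapatinib.

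The AP-2 genes did not move together. TFAP2C, at chr20:56629306-56639283, was the most abundant of them, with 11343, 10001 and 10977 normalized counts with NT siRNA and DMSO and 13499, 14625 and 13701 with NT siRNA and lapatinib. Under FOXA1 siRNA it had 9171, 8469 and 8783 in DMSO and 13158, 13204 and 13048 in lapatinib. The DMSO samples of the 2 siRNAs were separate, and so by a smaller distance were the lapatinib samples. With lapatinib TFAP2C rose by 0.39 (log2) (adjusted p = 0.000411) with NT siRNA and by 0.58 with FOXA1 siRNA (adjusted p = 1.42e-05). With FOXA1 siRNA it fell by 0.28 in DMSO (adjusted p = 0.00352), and in lapatinib the value was -0.09 (adjusted p = 0.113, and 0.0218 with the replicate block). Its interaction was 0.20 (SE 0.07, adjusted p = 0.114), with adjusted p = 0.0463 with the block.

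TFAP2B, at chr6:50818355-50847619, was scarce, and it was the only one of the 9 factors called up with FOXA1 siRNA. Its normalized count was 168.5, 134.9 and 206.1 with NT siRNA and DMSO and 137.9, 85.5 and 165.2 with NT siRNA and lapatinib. Under FOXA1 siRNA it was 275.8, 195.4 and 285.5 in DMSO and 343, 220.1 and 407.4 in lapatinib. Within each group replicate 2 was the lowest. TFAP2B rose with FOXA1 siRNA by a log2 fold change of 0.58 in DMSO (adjusted p = 0.0408) and of 1.31 in lapatinib (adjusted p = 0.00612). The call in DMSO was lost without replicate 1 or 2 of NT siRNA with DMSO (0.57 and 0.45) or replicate 1 or 3 of FOXA1 siRNA with DMSO (0.51 and 0.48), with adjusted p up to 0.134, and in the model of all 12 samples. Its log2 fold change with lapatinib was -0.37 with NT siRNA (adjusted p = 0.233) and 0.37 with FOXA1 siRNA (adjusted p = 0.206). Same-numbered samples deviated together, and when replicate numbers were blocked the first was a fall of -0.39 (adjusted p = 0.0286), the second a rise of 0.35 (adjusted p = 0.00745) and the interaction 0.75 (adjusted p = 0.00271). Without the block the interaction was 0.75 with adjusted p = 0.273. Paired by number, the change with lapatinib was between -49.4 and -30.5 normalized counts with NT siRNA and between 24.7 and 121.8 with FOXA1 siRNA.

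TFAP2A, at chr6:10396677-10419659, had small changes. It had normalized counts of 3622, 3478 and 3840 with NT siRNA and DMSO, 4183, 3920 and 4809 with NT siRNA and lapatinib, 3666, 3818 and 3851 with FOXA1 siRNA and DMSO, and 4542, 4425 and 4922 with FOXA1 siRNA and lapatinib. Lapatinib samples lay above DMSO samples, and the siRNAs overlapped within each drug condition. It rose by a log2 fold change of 0.26 (adjusted p = 0.0205) with lapatinib and NT siRNA and of 0.30 (adjusted p = 0.00123) with FOXA1 siRNA. The first call was lost without replicate 1 or 2 of NT siRNA with DMSO (0.25 and 0.21) or replicate 3 of NT siRNA with lapatinib (0.17), at adjusted p between 0.0591 and 0.0761. FOXA1 siRNA gave 0.06 in DMSO and 0.10 in lapatinib, and the latter passed only with the block (adjusted p = 0.0306). The antisense genes TFAP2A-AS1 and TFAP2A-AS2 were not among the listed genes.

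ESR1, at chr6:151656672-152129619, stayed at a trace level in all groups. It had normalized counts of 15.8, 12.9 and 15.3 with NT siRNA and DMSO, 27.3, 31.8 and 43.1 with NT siRNA and lapatinib, 12.0, 16.8 and 13.3 with FOXA1 siRNA and DMSO, and 41.3, 40.4 and 36.9 with FOXA1 siRNA and lapatinib. Lapatinib samples were above all DMSO samples, and the siRNAs overlapped within each drug condition. ESR1 rose by a log2 fold change of 1.24 (SE 0.28, adjusted p = 0.00486) with NT siRNA and of 1.49 with FOXA1 siRNA. FOXA1 siRNA gave -0.05 in DMSO and 0.20 in lapatinib, neither past the threshold, and the interaction of 0.27 had a 95% interval from -0.46 to 0.99, so at this depth a difference of the responses was not detectable. PGR, the progesterone receptor gene and a classic target of the estrogen receptor, was under 3 counts in every library.

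GRHL2, on chromosome 8, moved least clearly. The normalized counts were 2143, 1678 and 2117 with NT siRNA and DMSO, 2366, 2307 and 2711 with NT siRNA and lapatinib, 1865, 1358 and 1851 with FOXA1 siRNA and DMSO, and 2169, 1797 and 2220 with FOXA1 siRNA and lapatinib. Replicate 2 was the lowest of each group. With NT siRNA lapatinib raised it by 0.34 on the log2 scale (adjusted p = 0.0192), a call lost without replicate 3 of NT siRNA with lapatinib (0.26, adjusted p = 0.0726) and in the model of all 12 samples (adjusted p = 0.0537). With FOXA1 siRNA the value was 0.29 (adjusted p = 0.0846, and 0.000383 with the replicate block). FOXA1 siRNA gave -0.21 in DMSO (adjusted p = 0.238, and 0.00112 with the block) and -0.26 in lapatinib (adjusted p = 0.0516, and 0.000348 with the block). The interaction was -0.03 with a 95% interval from -0.43 to 0.38.

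Counted over the 9 factors, the comparison of lapatinib with DMSO under NT siRNA called 8 of 9 up and 0 down, where 30.5% of the 13713 genes tested were called up, 29.2% down and 59.7% in either direction. The median log2 fold change was 0.73 for the factors and 0.03 for all genes. ESR1, ELF3 and EHF also reached a log2 fold change of 1, a limit passed upward by 6.64% of all genes. Under FOXA1 siRNA 6 of 9 were up and 0 down, against 29.0% of 13745 genes up, 29.1% down and 58.2% in either direction, with a median of 0.58 against 0.01, and TFAP2B and GRHL2 joined the calls with the replicate block. ESR1 and ELF3 reached a log2 fold change of 1 there, against 4.93% of all genes upward. The 2 comparisons share no samples.

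FOXA1 siRNA in DMSO called 3 factors down (TFAP2C, SPDEF, EHF) and 1 up (TFAP2B), where 21.3% of the 13694 genes tested were down, 21.9% up and 43.2% either. None of the 9 reached a log2 fold change of 1 in size, against 6.84% of all genes. In lapatinib 3 were down (GATA3, SPDEF, EHF) and TFAP2B was up, against 22.2% of 13727 genes down, 22.7% up and 44.9% either. EHF and TFAP2B reached a log2 fold change of 1 in size, as 8.41% of all genes did. These counts lie near the shares of all genes, and the median log2 fold changes were -0.11 and -0.09. With the block 5 of 9 factors were down in each condition, and of all genes tested 4129 were down in DMSO and 4269 in lapatinib.

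Cells with FOXA1 siRNA and lapatinib were set against cells with NT siRNA and DMSO, which share samples with the comparisons above. In this comparison 7 of 9 factors were up and 0 down, against 33.9% of 13813 genes up, 32.5% down and 66.4% either. GATA3 at a log2 fold change of 0.07 (95% interval -0.08 to 0.22) and GRHL2 at 0.09 did not pass the test. ESR1 at 1.45, ELF3 at 1.32 and TFAP2B at 0.96 had the highest values, and a log2 fold change of 1 was reached by ESR1 and ELF3 and by 9.96% of all genes upward. EHF at 0.35 passed (adjusted p = 0.0220), but not without replicate 1 or 3 of NT siRNA with DMSO (0.27 and 0.29) or replicate 2 or 3 of FOXA1 siRNA with lapatinib (0.28 and 0.33). The interaction called 2 factors, GATA3 and EHF, both negative, where 3.20% of the 14012 genes tested were negative, 3.99% positive and 7.19% were called in either direction.

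**Figure D3:**
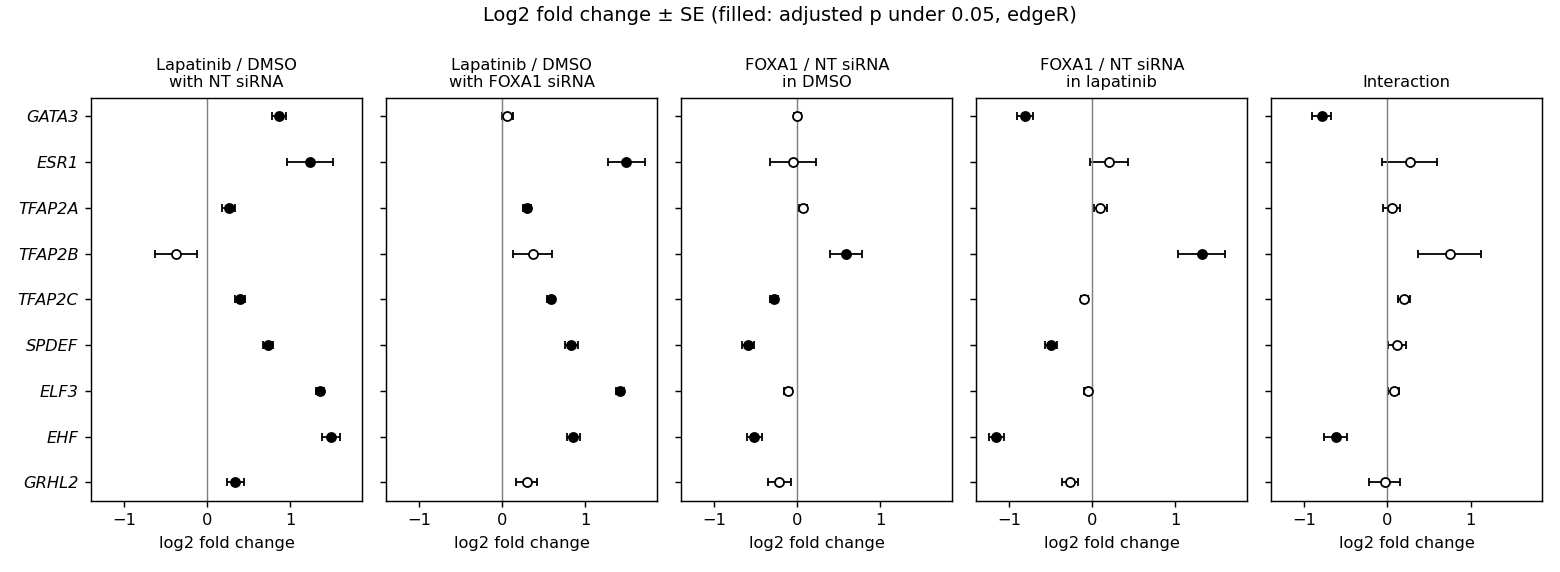
Log2 fold change ± SE of each factor in the 4 comparisons of 1 treatment and in the interaction of siRNA and drug, with filled points where the adjusted p of edgeR's quasi-likelihood test was under 0.05. GATA3 and EHF carry the only filled points of the interaction, at -0.79 and -0.62.

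Relatives of the 9 factors in the same DNA-binding families were examined from a list of 17 paralogs. GATA1, GATA4 and TFAP2D stayed under 3 counts in every library. With lapatinib and NT siRNA 7 of the 14 tested rose and 2 fell, against 30.5% and 29.2% of all genes. ELF5, a factor of alveolar luminal progenitors, led the rises at 1.14, with GATA6 at 0.86 and GRHL1 at 0.49. ELF4 fell by 0.45 and GATA2 by 0.22 (log2). With FOXA1 siRNA in DMSO 4 rose and 2 fell, against 21.9% and 21.3% of all genes. GRHL3 fell by 1.55 and GATA6 by 1.13, ELF5 rose by 0.94, and ESRRG and TFAP2E rose by 1.46 and 1.09 from a mean of 7.19 and 11.4 normalized counts. In lapatinib 3 rose and 4 fell of 12 tested with FOXA1 siRNA, against 22.7% and 22.2% of all genes. GRHL3 fell by 1.48 and GATA6 by 1.05. The interaction was called for GATA2 at 0.39, GRHL1 at -0.44 and ELF5 at -0.74. ELF5 went from 573 to 1245 normalized counts with lapatinib under NT siRNA and from 1093 to 1420 under FOXA1 siRNA.

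Among 15 other luminal regulators tested, 10 fell and 2 rose with FOXA1 siRNA in DMSO, against 21.3% and 21.9% of all genes, and the falls include FOXA1, the target of the siRNA. TOX3 fell by 1.54 and XBP1, which drives the secretory pathway, by 1.36, while KLF5 rose by 0.59 and TBX3 by 0.43. In lapatinib 8 fell, FOXA1 again included, and 3 rose, against 22.2% and 22.7% of all genes, with TOX3 down by 1.60, XBP1 down by 1.53, and ZNF703 at 0.66, CITED1 at 0.64 and TBX3 at 0.33 up. With lapatinib and NT siRNA 8 rose and 1 fell, against 30.5% and 29.2% of all genes. CREB3L1 at 2.29, TOX3 at 1.73 and KLF5 at 1.58 led the rises, and LMO4 fell by 0.31. With lapatinib under FOXA1 siRNA 10 rose and 1 fell, against 29.0% and 29.1% of all genes. CREB3L1 rose by 2.38, TOX3 by 1.68 and XBP1 by 1.18. The interaction was negative for KLF5 at -0.53 and positive for ZNF703 at 0.65 and RUNX1 at 0.48.

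Basal regulators were at low levels apart from SOX9 and NFIB. Of 6 tested with FOXA1 siRNA in DMSO, 4 rose and 0 fell, against 21.9% of all genes up, with NFIB at 1.33, ID4 at 0.77 and BCL11A at 0.77. NFIB went from 1330 to 3313 normalized counts, while ID4 went from 15.7 to 26.5. In lapatinib 5 of 6 rose, against 22.7% of all genes up, with NFIB at 1.27 and ID4 at 1.20. EGR2 at 1.86 was among them, with 2 to 5 counts under NT siRNA and 12 to 21 under FOXA1 siRNA. It entered this fit only through the FOXA1 siRNA samples. Lapatinib under NT siRNA raised BCL11A by 1.06 and SOX9 by 0.93, and TP63, the basal master regulator, fell by 1.65 from a mean of 8.14 normalized counts. TP63 entered this fit only through the DMSO samples. With FOXA1 siRNA lapatinib raised 5 of 7, against 29.0% of all genes up, with ID4 at 1.17 and FOXC1 at 0.87. EGR2 at 1.90 was among them, with 1 to 8 counts in DMSO, and entered this fit only through the lapatinib samples. SOX10 and SNAI2 were under 3 counts in every library. Of the 5 basal markers 3 rose with FOXA1 siRNA in DMSO and 0 fell, against 21.9% and 21.3% of all genes. In DMSO the 5 markers summed to between 1.65 and 2.54 TPM with NT siRNA and to between 4.19 and 6.42 TPM with FOXA1 siRNA, and ACTA2, a contractile gene of myoepithelial cells, had a mean of 1.48 and 3.40 TPM. KRT5 had a mean of 7.54 and 46.6 normalized counts and KRT14 of 0.33 and 5.53. KRT14, counted among the 3 that rose, had 0 to 1 and 1 to 11 counts and entered the fit only through the FOXA1 siRNA samples. KRT17 at 0.36 (adjusted p = 0.432) and TP63 at -0.19 (log2) were not called. The luminal and HER2 markers summed to between 16844 and 19191 TPM and to between 15137 and 16056 TPM in the same groups. In bulk RNA, fewer cells of a type and less RNA per cell cannot be told apart, and the part of these markers in the change of TFAP2B, SPDEF and EHF was not tested. Of 7 mesenchymal factors only SNAI1 was tested, and ZEB1, ZEB2, TWIST1, TWIST2, PRRX1 and FOXC2 were under 3 counts in every library. SNAI1 fell with lapatinib by 1.91 under NT siRNA and by 1.96 under FOXA1 siRNA, and it rose with FOXA1 siRNA by 0.60 in DMSO (adjusted p = 0.00988) and was at 0.54 in lapatinib (adjusted p = 0.0502).

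**Figure D4:**
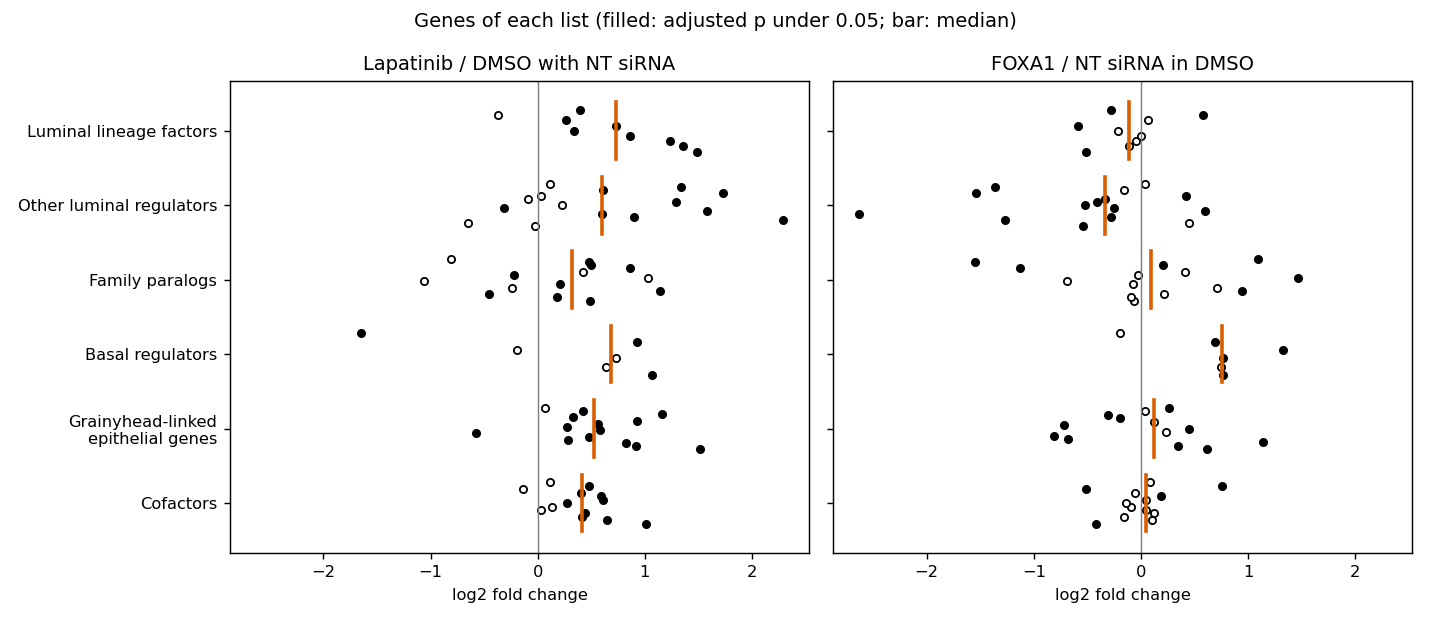
Log2 fold change of the genes tested in 6 lists with lapatinib under NT siRNA (left) and with FOXA1 siRNA in DMSO (right), filled where the adjusted p was under 0.05, with the median of each list as a bar. Most luminal lineage factors lie right of 0 with lapatinib, and with FOXA1 siRNA they are spread on both sides of 0, as the grainyhead-linked genes are, while 10 of the other luminal regulators fell.

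Of 13 cofactors tested, 9 rose and 0 fell with lapatinib under NT siRNA, against 30.5% of all genes up, led by CITED2, a coactivator of AP-2 factors, at 1.01, CITED4 at 0.65 and NCOA2 at 0.61. With FOXA1 siRNA 8 rose and 0 fell, against 29.0% of all genes up, with CITED2 at 1.08 and NCOA3 at 0.41. FOXA1 siRNA changed 4 in DMSO, against 43.2% of all genes. NRIP1, a corepressor of the estrogen receptor, rose by 0.76 and NCOA3 by 0.19, and CITED2 fell by 0.42. In lapatinib 6 fell and 1 rose, against 22.2% and 22.7% of all genes. NCOR1 was at -0.39, CITED2 at -0.37, NCOA2 at -0.36 and NRIP1 at 0.41. ZFPM1, the GATA cofactor, was not called in any comparison, and ZFPM2 was under 3 counts in every library.

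Genes linked to the estrogen receptor moved in both directions. With lapatinib and NT siRNA ESR1 rose, and 2 of 11 estrogen-response genes tested rose (PDZK1 by 0.96 and NRIP1 by 0.48) while 3 fell. Of all genes 30.5% rose and 29.2% fell. TFF1 fell by 0.58, and STC2 and IGFBP4 went from 10.5 to 0.99 and from 10.8 to 1.41 normalized counts. STC2 and IGFBP4 entered this fit only through the DMSO samples. With FOXA1 siRNA, where ESR1 was not called, 1 rose and 3 fell of 11 in DMSO, and 2 rose and 4 fell of 9 in lapatinib. The shares of all genes were 21.9% up and 21.3% down in DMSO and 22.7% up and 22.2% down in lapatinib. NRIP1 rose by 0.76 in DMSO and by 0.41 in lapatinib, and CA12 rose by 0.52 in lapatinib. TFF3 fell by 1.17 and TFF1 by 1.16 in DMSO and by 1.23 and 1.04 in lapatinib, and MYB fell by 0.52 and 0.98. CXCL12 was under 3 counts in every library.

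Epithelial genes linked to grainyhead factors rose with lapatinib, 12 of 14 with NT siRNA against 30.5% of all genes. SPINT1, a protease inhibitor, rose by 1.16, PRSS8 by 0.93, and LAD1 fell by 0.57. CDH1, which encodes E-cadherin, rose by 1.52, but from a mean of 4.92 to 13.9 normalized counts, a trace in a line known to lack E-cadherin. CDH1 entered this fit only through the lapatinib samples. With FOXA1 siRNA 11 of 13 rose with lapatinib, against 29.0% of all genes, and LAD1 fell by 0.30. FOXA1 siRNA in DMSO divided the list, with 5 up and 5 down of 13 tested, against 21.9% and 21.3% of all genes. ESRP1 and ESRP2, a pair of epithelial splicing regulators, moved in opposite directions, at 1.14 and -0.68 in DMSO and at 1.05 and -0.70 in lapatinib.

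Genes linked to AP-2 factors included the HER2 gene itself. Lapatinib raised ERBB2 by 1.01 under NT siRNA and by 0.68 under FOXA1 siRNA, with an interaction of -0.31, and FOXA1 siRNA gave -0.11 in DMSO, not called, and -0.45 in lapatinib, called. ERBB3 rose by 1.23 and 1.09 with lapatinib and fell with FOXA1 siRNA by 1.21 in DMSO and by 1.36 in lapatinib. Lapatinib under NT siRNA raised MUC1 by 2.16, and FOXA1 siRNA raised it by 0.82 in DMSO and by 0.65 in lapatinib. RET fell with lapatinib, by 2.875 under NT siRNA from a mean of 19.2 normalized counts. Under FOXA1 siRNA RET fell by 1.74 from a mean of 6.99. RET entered both fits only through the DMSO samples. FREM2 fell by 0.42 with lapatinib under NT siRNA. MCAM rose with FOXA1 siRNA by 1.19 in DMSO and by 2.02 in lapatinib. Over the 10 genes, 4 rose and 2 fell with lapatinib and NT siRNA, against 30.5% and 29.2% of all genes. With FOXA1 siRNA in DMSO 5 rose and 3 fell, against 21.9% and 21.3%. Of the 10, KIT had 5 to 8 counts there under NT siRNA and 9 to 19 under FOXA1 siRNA. It entered that fit only through the FOXA1 siRNA samples.

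Few genes linked to SPDEF were expressed. With FOXA1 siRNA 2 fell and 0 rose of 3 tested in DMSO, against 21.3% and 21.9% of all genes. In lapatinib 1 fell and 1 rose of 4, against 22.2% and 22.7%. With lapatinib 1 of 3 rose under NT siRNA and 3 of 4 under FOXA1 siRNA, against 30.5% and 29.0%. AGR2, a disulfide isomerase of secretory cells, fell with FOXA1 siRNA by 1.12 in DMSO and by 1.60 in lapatinib, and it was not called with lapatinib under either siRNA. MUC5B, a gel-forming mucin, fell by 1.14 with FOXA1 siRNA in DMSO, and its interaction was 0.94. GALNT12 rose with lapatinib by 0.55 and 0.69. MUC5B rose with lapatinib by 0.86 under FOXA1 siRNA and was not called under NT siRNA. GCNT3 rose with lapatinib by 1.88 under FOXA1 siRNA, from a mean of 3.82 to 14.3 normalized counts. With NT siRNA and lapatinib it had a mean of 4.98, and it entered these fits only through the samples with FOXA1 siRNA and lapatinib. MUC5AC was not among the listed gene symbols.

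Upstream sequences of the factors were searched for a forkhead motif. SPDEF, EHF, TFAP2B, TFAP2C and GATA3 were called with FOXA1 siRNA in DMSO, in lapatinib or in both. The windows were the 250 bases before each RefSeq start (GRCh38.p14), 19 windows of 7 of the factors, and TFAP2C and GRHL2 had no entry. The forkhead motif was searched on both strands as GTAAACA, as the variant form GTAAATA, and in the related form read as GTCAACA, letters that were chosen after the sequences had been seen. They were found in 3 windows, 1 each of SPDEF, EHF and TFAP2B, and 7.09% of all 35116 windows held at least 1 of them. Because of that choice of letters, the matches cannot be tested against this share. GATA3 had 6 windows, and 0 of them held a match. The windows also overlap exons of other transcripts of the same gene in GENCODE, so 30 bases around each match are shown, with the match in capitals, read 5′ to 3′ on the strand of the gene.
SPDEF, chr6:34556361-34556390, minus strand: gtatttgttcagGTAAATAaggaaggatta
EHF, chr11:34632358-34632387, plus strand: aattaacagctcTGTTTACggtgggtttta
TFAP2B, chr6:50818637-50818666, plus strand: gggtgtctgggtGTAAATAcgggtttatga
The match begins 49 bases before the start for SPDEF, 196 for EHF and 222 for TFAP2B. The match of EHF is GTAAACA read from the other strand. A match describes these letters and is not a measured binding site.

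Transcript lengths, which the deposited values weight by the abundance of each transcript, moved little. TFAP2C ranged between 2748 and 2776 bases and ELF3 between 3166 and 3188 bases over the 12 samples. The mean length of ELF3 was 3184 with NT siRNA and DMSO and 3169 with FOXA1 siRNA and DMSO, without overlap, at p = 0.1 (two-sided exact permutation test), the smallest p that 3 against 3 samples allow. ESR1 ranged between 2690 and 5080 bases, from few counts, and no comparison separated its groups.

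The genes whose pattern over the 12 samples was most like that of a factor were ranked by Pearson's r of log2 normalized counts among 10804 genes. The samples fall into 4 groups, so r mostly repeats the differences between groups. For GATA3 they were VPS8 (0.97), COPB2 (0.97) and ALDH4A1 (0.96). For SPDEF they were TP53INP2, BCAS1 and CCDC149 (0.99 each), and for EHF TMEM165 (0.9956), POLD4 and ANKRD10 (0.99 each). ELF3 was followed by BCL6 (0.9965), MXI1 (0.996) and JAK1 (0.9955), TFAP2C by RUSC2, YEATS2 and ZNF277, TFAP2A by CD59, HECTD3 and ASAH1, TFAP2B by AVEN, HDHD2 and ABCC2, and GRHL2 by CNPY3, C1orf103 and SLC25A40. Ranked by Spearman's rho instead, at most 1 of the 3 genes remained for any factor.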

How the data were processed

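RNAseq of 12 SKBR-3 samples in 4 groups of 3 was analyzed, with groups and replicate numbers from the labels. The authors deposited for each library and gene an expected (estimated) count, TPM and the length in bases averaged over its transcripts. The methods name STAR and Salmon with hg38, while the submitters' processing notes name RSEM, DESeq, DESeq2 1.12.3 and R 3.2.2. The labels name 2 different library kits, and whether strand was used in counting is not given in the sources used here. The deposited normalized column was not used. The deposited expected counts, 87.5% to 88.1% of them whole in a library, were rounded, and 29 rows with a gene ID but no symbol were tested and not named.

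Tests used edgeR 4.0.16 in R 4.3.3, by its quasi-likelihood test after TMM normalization. A gene entered a fit if any 1 of its samples had 10 counts or more. Each comparison of 2 groups used its own 6 samples, and the interaction used all 12. A gene was called at a p under 0.05 after Benjamini-Hochberg adjustment over all genes tested. A stricter rule added a log2 fold change of at least 1. Standard errors were derived from the F statistic. A script was tested on simulated data. The library totals lay between 25749578 and 32271850 (median 30542430), and a gene under 3 counts was called not detectable, a limit for counting error only, since amplified reads are not independent molecules.

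Same-numbered samples deviated together. The correlation of their deviations from the group means over 10812 genes was between 0.27 and 0.70 in the 18 same-numbered pairs (mean 0.43) and averaged -0.20 in different-numbered pairs. The labels do not say what the numbers stand for, and the pairing comes from this check. The numbers were therefore used as a block in a second fit.

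The 9 factors and all gene lists were chosen with earlier results of these data known. All factors are reported. Of each list, the genes named are at most 3 up and 3 down, the called genes of greatest log2 fold change, those under 3 counts throughout, and some named for their role after their values were seen (ERBB2, NFIB, ID4, KRT5, KRT14, ELF5, CDH1, ESRP2, ZFPM1, MYB and MUC5B among them). The list sizes and counts stand with each result. As alternatives, normalization by RLE or the upper quartile, DESeq2 1.42.0, no filter, a filter of 10 counts in each sample, 1 model of all 12 samples, the replicate block, an adjusted p under 0.01, the fold limit of the stricter rule, added after seeing the data, and leaving out each sample were tried. Promoter windows and gene positions are RefSeq's for GRCh38.p14. Tables and plots were made in Python 3.11.15 with matplotlib 3.10.9. Some genes that the rule covers are left out of the text.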

Additional observations from a re-analysis of the deposited data

Results flagged for a closer look

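The response of GATA3 to lapatinib differed between the siRNAs by the interaction test, at -0.79 (log2, SE 0.12, adjusted p = 0.00269, edgeR), and the 3 samples with NT siRNA and lapatinib stood above the other 9. The response of EHF differed by -0.62 (SE 0.14, adjusted p = 0.0215). In same-numbered pairs EHF rose by 586 to 942 normalized counts with FOXA1 siRNA and by 2259 to 2610 with NT siRNA. These count rises start from a lower level in DMSO with FOXA1 siRNA, whereas the interaction compares log2 responses. TFAP2B differed by 0.75 with the replicate block (adjusted p = 0.00271), falling in the 3 same-numbered pairs with NT siRNA and rising in the 3 with FOXA1 siRNA, and without the block its adjusted p was 0.273. TFAP2C differed by 0.20 with the block (adjusted p = 0.0463) and at adjusted p = 0.114 without it.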

How the results depend on the processing

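Leaving out 1 sample at a time kept direction and side of the threshold in 343 of 378 values of single factors, and the other settings did so in 431 of 477. Among the latter, the adjusted p under 0.01 and the fold limit reuse the main fit, so they can lose a call but cannot change a direction or add a call. With the replicate block the number of factors down was 1 for lapatinib under NT siRNA and 5 for FOXA1 siRNA in DMSO, and for FOXA1 siRNA in lapatinib 2 were up and 5 down. Over all genes the block gave 4498 down for lapatinib under NT siRNA, 4129 down for FOXA1 siRNA in DMSO against 2910 without it, and 4200 up and 4269 down for FOXA1 siRNA in lapatinib against 3121 and 3048. The block also called 2 factors up in the interaction, where all genes gave 1561 up and 1292 down against 559 and 449. The block changed no other call of a factor than those given with the results. With the stricter limit on the fold change, 3 factors were up with lapatinib under NT siRNA, 2 under FOXA1 siRNA and 2 in the combined comparison of both treatments with neither, FOXA1 siRNA in DMSO had 0 up and 0 down, FOXA1 siRNA in lapatinib had 1 down, and the interaction had 0 down. The number up with FOXA1 siRNA in DMSO was 0 with all 12 samples in 1 model and 0 at an adjusted p under 0.01, where the interaction kept 1 down. At that threshold all genes gave 1969 up and 1830 down for FOXA1 siRNA in DMSO, 2061 and 1987 in lapatinib, and 156 and 148 for the interaction. For other settings the cause of a lost call was not tested.

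Without 1 sample, the number up with FOXA1 siRNA in DMSO was 0 to 1, and the interaction had 0 to 1 up and 1 to 2 down (all genes 300 to 782 up and 242 to 583 down). Values near 0 that were called under no setting changed sign. GATA3 with FOXA1 siRNA in DMSO was -0.00704 without the filter, -0.0111 in the model of all samples, and between -0.0274 and 0.0294 without 1 sample. Without 1 sample, ESR1 in that comparison was between -0.20 and 0.05003, GRHL2 in the combined comparison between -0.0353 and 0.18, and in the interaction GRHL2 lay between -0.16 and 0.0774 and TFAP2A between -0.0129 and 0.14. Of the levels per length, EHF and GRHL2 exchanged places by counts per kilobase with NT siRNA and DMSO, and SPDEF and ELF3 did so with NT siRNA and lapatinib. Depth limits ESR1, at 12 to 42 counts a library, and TFAP2B. The calls of GRHL2 and TFAP2A with lapatinib under NT siRNA were lost without single libraries, as given with the results.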
